A study of Mus musculus with 4 samples.

Results

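Matricellular proteins are secreted into the extracellular matrix but act mainly as signals: they bind integrins, CD36, CD47 and growth factors and so change how cells adhere, move and divide. The thrombospondins (*Thbs1*, *Thbs2* and the cartilage form *Comp*) and the CCN proteins (*Ccn1* to *Ccn5*) are the main families, and periostin (*Postn*) and fibronectin (*Fn1*) share their integrin receptors. In arteries these genes are known for their induction after injury and in plaques, where smooth muscle cells leave the contractile state. All 10 had a row in each of the 4 libraries, among 31765 genes in both plaque libraries, 26391 in the ligation control and 27696 in the ligation mutant.

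The cells came from C57Bl/6 mice (C57Bl6/J in the paper). They were sequenced by 3′ single-cell RNA-seq with unique molecular identifiers (UMIs), with 1 library per genotype in each of 2 experiments. Plaques were dissected from the aortic root, the aortic arch and the carotid arteries of Myh11-CreERt2/Confetti/ApoE-/- mice (below *ApoE-/-*) and of Myh11-CreERt2/Confetti/Sm22a-Trf2T188A/ApoE-/- mice (below *Trf2T188A/ApoE-/-*). These mice received tamoxifen to switch on the Confetti lineage reporter in Myh11-expressing cells and then a high-fat diet. The inducible Cre is expressed only in males, and the authors kept plaque clusters that carried the reporter. Ligated carotid arteries, stripped of adventitia, were taken after 28 days from control mice (wild type control) and *Trf2T188A* littermates (SM22a-TRF2T188A). In both experiments the mutant TRF2 protein, which damages telomeres, is driven by a minimal *Sm22a* promoter that is specific for arterial smooth muscle. The labels give no age, though the paper states ages for both experiments. The labels also omit how many mice went into a library, so no value below has a replicate and no test between genotypes was possible. Intervals are exact 95% intervals (Poisson for a level, a binomial split of the UMIs for a ratio) and cover counting error only.

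The *ApoE-/-* library held 1502 cells and 37869934 UMIs, and the *Trf2T188A/ApoE-/-* library 929 cells and 24064570 UMIs. Medians were 22766 and 24377 UMIs per cell. After ligation the control library held 4967 cells and 47713453 UMIs, and the *Trf2T188A* library 5392 cells and 67426588 UMIs. The ligation mutant cells were deeper, with a median of 11153 UMIs against 8631. The plaque libraries shared 0 cell barcodes and the ligation libraries 10. Endogenous *Terf2*, the gene for TRF2, was at 0.183 UMIs per 10000 in both plaque libraries and at 0.179 in the ligation control against 0.168 in the mutant. The plaque files also list the human TRF2 transgene, with 0 UMIs in 1502 *ApoE-/-* cells (a count of 0, taken as 3 counts, allows up to 0.2% of cells with a UMI, which is no limit on cells with the transgene) and 10 UMIs in 9 of 929 *Trf2T188A/ApoE-/-* cells. Confetti transcripts were found in 83.6% of *ApoE-/-* and 85.4% of *Trf2T188A/ApoE-/-* plaque cells.

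Clusters were named from marker lists, with the 10 genes left out of the genes used for clustering. Plaque cells formed contractile-like cells (634 in *ApoE-/-* and 287 in *Trf2T188A/ApoE-/-*), cells high in *Itih4* and metallothioneins (238 and 172), fibromyocyte-like cells (159 and 126), complement and acute-phase cells (108 and 82) and chondrocyte-like cells (81 and 63). The contractile-like state pooled cluster 0 (338 and 180 cells) and cluster 2 (296 and 107). The 7 *Itih4* metallothionein markers summed to 77.4 and 83.0 UMIs per 10000 in the cells named for them. Complement and acute-phase cells had 91.9 and 81.7. Smaller states were the *Adamtsl1 Mdga2* cells (42 and 40) and the *Pln Sncg Notch3* cells (45 and 23). Cluster 5, led by *Mpp7* and *Flnc* (83 and 102 cells), and cluster 7 (78 and 33 cells) were left unnamed. Cluster 5 had low depth, with medians of 10433 and 8146 UMIs, and all 8 immediate-early markers were raised in it. Ligated arteries held contractile-like (1559 control and 2279 mutant), remodelling-like (2043 and 1881), de-differentiated-like (1161 and 1021), interferon-responding-like (119 and 72) and endothelial-like cells (62 and 65). Fibroblast-like plaque cells (34 and 1), immune-like (19 and 59) and cycling-like ligation cells (4 and 15) fell under the 20 cells per library required for a comparison. The 8 contractile markers summed to a gradient over these plaque states: 477 and 495 UMIs per 10000 in contractile-like cells, 71.4 and 62.0 in fibromyocyte-like cells and 7.15 and 3.31 in chondrocyte-like cells.

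The question asked first was how each gene differs between the cells named contractile-like and the other states of the same experiment. A gene was counted when its level, its summed UMIs per 10000 summed UMIs of the state, lay past 2-fold from that in contractile-like cells in both libraries in the same direction. It also needed at least 50 UMIs over both libraries, summed over the state and contractile-like cells, so the state itself could hold few. *Thbs1* itself is among the 10 leading genes of the fibromyocyte-like cluster, *Ccn5* of the remodelling-like cluster and *Comp* of the de-differentiated-like cluster, so their rank in those clusters describes the clusters and is not a separate result.

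**Figure D1:**
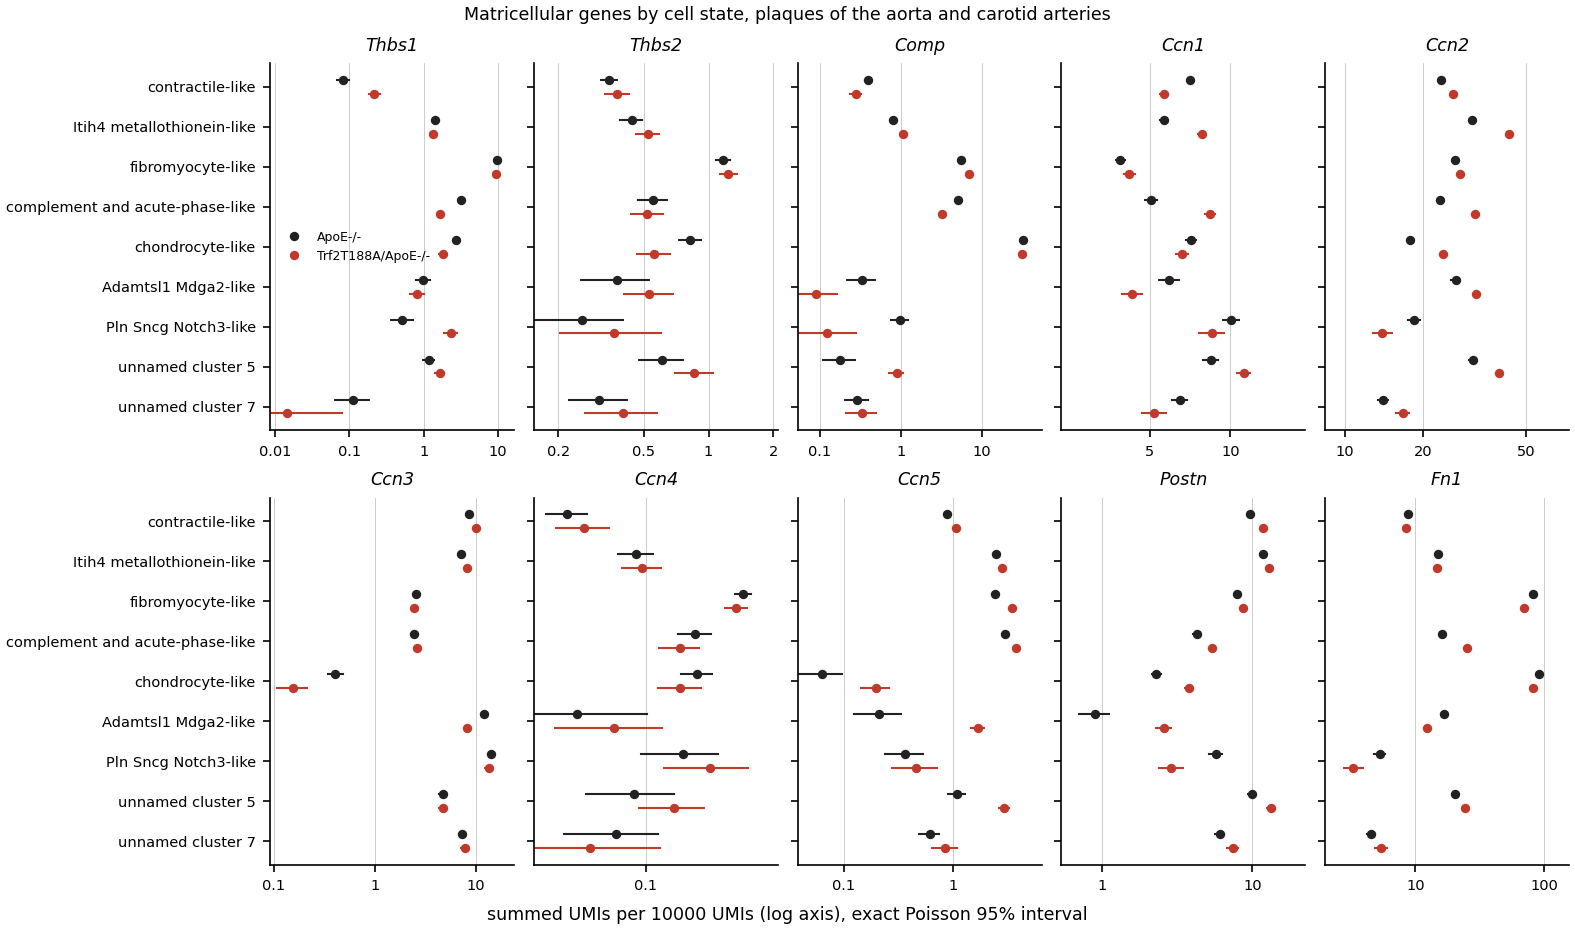
Level of the 10 matricellular genes in each plaque cell state (summed UMIs per 10000 UMIs on a log axis, a scale of its own for each gene). Points are the *ApoE-/-* library (black) and the *Trf2T188A/ApoE-/-* library (red) with exact Poisson 95% intervals, drawn up to the axis edge. *Thbs1* was highest in fibromyocyte-like cells in both libraries, *Comp* and *Fn1* in chondrocyte-like cells, and *Ccn3* in *Pln Sncg Notch3* cells.

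In plaques *Thbs1*, *Comp*, *Ccn4* and *Fn1* were above contractile-like cells in both fibromyocyte-like and chondrocyte-like cells, while *Ccn3* was below in both. Fibromyocyte-like cells had 6 of the 10 genes above contractile-like cells (*Thbs1*, *Thbs2*, *Comp*, *Ccn4*, *Ccn5* and *Fn1*), where 10.6% of all genes were above. The single gene below was *Ccn3*, against 7.7% of all genes. Chondrocyte-like cells had 4 above (*Thbs1*, *Comp*, *Ccn4* and *Fn1*; background 9.02%) and 3 below (*Ccn3*, *Ccn5* and *Postn*; background 18.3%). Complement and acute-phase cells had 4 above (*Thbs1*, *Comp*, *Ccn4* and *Ccn5*; background 9.82%) and 2 below (*Ccn3* and *Postn*; background 4.72%).

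The *Itih4* metallothionein cells, which kept most of the contractile programme (329 and 324 UMIs per 10000 over the 8 markers), had *Thbs1*, *Comp*, *Ccn4* and *Ccn5* above contractile-like cells, 4 of 10 against 2.62% of all genes, and 0 below against 0.617%. *Adamtsl1 Mdga2* cells had *Thbs1* above (1 of 10, background 5.26%) and *Postn* below (1 of 10, background 2.85%). *Pln Sncg Notch3* cells had *Thbs1* and *Ccn4* above (2 of 10, background 2.16%) and *Ccn5* below (1 of 10, background 3.22%). There *Ccn4* rested on 13 and 11 UMIs, and most of the mutant *Thbs1* UMIs came from a single cell. Cluster 5 had *Thbs1*, *Ccn4* and *Fn1* above (3 of 10, background 11.3%) and 0 below (background 7.6%), with *Ccn4* resting on 10 and 18 UMIs. Cluster 7 had 0 above and 0 below, with backgrounds of 1.46% and 1.59%. Under the fold, *Fn1* (-0.95 and -0.64), *Ccn2* (-0.75 and -0.64), *Postn* (-0.67 and -0.67) and *Ccn3* (-0.26 and -0.38) had log2 ratios to contractile-like cells with intervals below 0 in both libraries.

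*Thbs1*, a secreted glycoprotein that binds CD36 and CD47 and releases latent TGF-β, had the steepest rise of the family in fibromyocyte-like cells. Its level was 0.0812 UMIs per 10000 in contractile-like *ApoE-/-* cells and 0.217 in contractile-like *Trf2T188A/ApoE-/-* cells. In fibromyocyte-like cells it was 9.74 (9.50 to 9.99) and 9.31 (9.01 to 9.62). The fold over contractile-like cells was therefore 120 in *ApoE-/-* and 43.0 in *Trf2T188A/ApoE-/-* cells, and the gap between these folds came from the contractile-like level. Complement and acute-phase cells followed in *ApoE-/-* with 3.18 and chondrocyte-like cells with 2.70. In *Trf2T188A/ApoE-/-* cells the *Pln Sncg Notch3* (2.33), chondrocyte-like (1.80), complement and acute-phase (1.67) and cluster 5 cells (1.65) did not differ beyond neighbouring intervals. A UMI of *Thbs1* was found in 72.3% and 75.4% of fibromyocyte-like cells, at medians of 34808 and 29841 UMIs, against 10.4% and 12.2% of contractile-like cells at 21750 and 24028.

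*Thbs2*, known as an inhibitor of angiogenesis that also shapes collagen fibrils, varied much less. It was highest in fibromyocyte-like cells, at 1.17 and 1.23 UMIs per 10000, and between 0.258 and 0.86 in every other state. Apart from the fibromyocyte-like cells, which stood above the rest in both libraries, most neighbours in its order had overlapping intervals.

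*Comp*, the cartilage oligomeric matrix protein, marked the chondrocyte-like cells most strongly: 32.3 UMIs per 10000 (31.7 to 33.0) in *ApoE-/-* and 31.7 (31.0 to 32.5) in *Trf2T188A/ApoE-/-* cells. Contractile-like cells had 0.393 and 0.277, so the fold was 82.3 and 115. Fibromyocyte-like cells had 5.47 and 7.06 and complement and acute-phase cells 5.16 and 3.25, with overlapping intervals in *ApoE-/-*. Its UMIs were concentrated in few cells outside the chondrocyte-like state. In fibromyocyte-like *ApoE-/-* cells a single cell gave 32.7% of them and in complement and acute-phase *ApoE-/-* cells a single cell gave 42.3%.

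*Fn1*, fibronectin, the integrin-binding scaffold on which other matrix proteins assemble, followed a like order at its upper end. Chondrocyte-like cells had 91.8 and 81.8 UMIs per 10000 and fibromyocyte-like cells 81.9 and 69.5, with intervals that did not overlap in either library. Contractile-like cells had 8.71 and 8.42. Cluster 7 (4.52 and 5.41) and *Pln Sncg Notch3* cells (5.27 and 3.30) were at the bottom.

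*Postn*, periostin, an integrin ligand induced by TGF-β, did not follow *Fn1*. It was high in *Itih4* metallothionein cells (11.7 and 13.0), cluster 5 (9.88 and 13.2) and contractile-like cells (9.64 and 11.8), and lower in complement and acute-phase cells (4.27 and 5.43) and chondrocyte-like cells (2.29 and 3.79). *Adamtsl1 Mdga2* cells had 0.891 in *ApoE-/-*, below every other state, and 2.58 in *Trf2T188A/ApoE-/-*, with an interval that overlapped that of *Pln Sncg Notch3* cells. Periostin transcript was therefore lower in chondrocyte-like than in contractile-like cells, but it did not follow the contractile markers throughout, since *Pln Sncg Notch3* cells had 5.72 and 2.89.

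Among the CCN genes, *Ccn3* was lowest in chondrocyte-like cells, which also had the lowest contractile marker sum. This protein, formerly Nov, is known to restrain smooth muscle cell proliferation. Its level was 14.1 and 13.4 in *Pln Sncg Notch3* cells, 8.65 and 10.1 in contractile-like cells, 2.56 and 2.44 in fibromyocyte-like cells, and 0.406 and 0.153 in chondrocyte-like cells. Fibromyocyte-like and complement and acute-phase cells (2.47 and 2.63) did not differ beyond their intervals. *Adamtsl1 Mdga2* cells did not follow the contractile markers, with *Ccn3* at 12.0 and 8.25 and a marker sum of 212 and 192. *Ccn4*, a Wnt-induced gene, had 0.442 and 0.398 in fibromyocyte-like cells, which overlapped *Pln Sncg Notch3* cells in the mutant. At 0.0304 and 0.0389 in contractile-like cells, it overlapped the next state in both libraries.

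*Ccn5* encodes the CCN protein without the carboxy-terminal domain of the others and is known to restrain smooth muscle cell proliferation and motility. It was highest in complement and acute-phase cells (3.02 and 3.86), though the mutant interval overlapped that of fibromyocyte-like cells (2.43 and 3.51). *Itih4* metallothionein cells had 2.49 and 2.83, which overlapped fibromyocyte-like cells in *ApoE-/-* and cluster 5 (1.09 and 2.95) in the mutant. Contractile-like cells had 0.895 and 1.08 and chondrocyte-like cells 0.0627 and 0.196.

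*Ccn1* and *Ccn2* are immediate-early, YAP/TAZ-driven genes whose proteins bind integrins, and neither was past 2-fold from contractile-like cells in both libraries in any plaque state. *Ccn1* lay between 3.87 and 11.2 UMIs per 10000 over all states and both libraries, and was lowest in fibromyocyte-like cells in both, with an interval that overlapped that of *Adamtsl1 Mdga2* cells in the mutant. *Ccn2*, connective tissue growth factor, lay between 14.0 and 43.1. Enzymatic digestion can raise such genes. The 16 dissociation-response genes took 0.687% and 0.656% of the UMIs of fibromyocyte-like cells, 1.11% and 0.991% of contractile-like cells, 2.09% and 2.23% of chondrocyte-like cells and 1.94% and 2.24% of cluster 5. Their part in the levels of *Ccn1* and *Ccn2* was not tested.

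**Figure D2:**
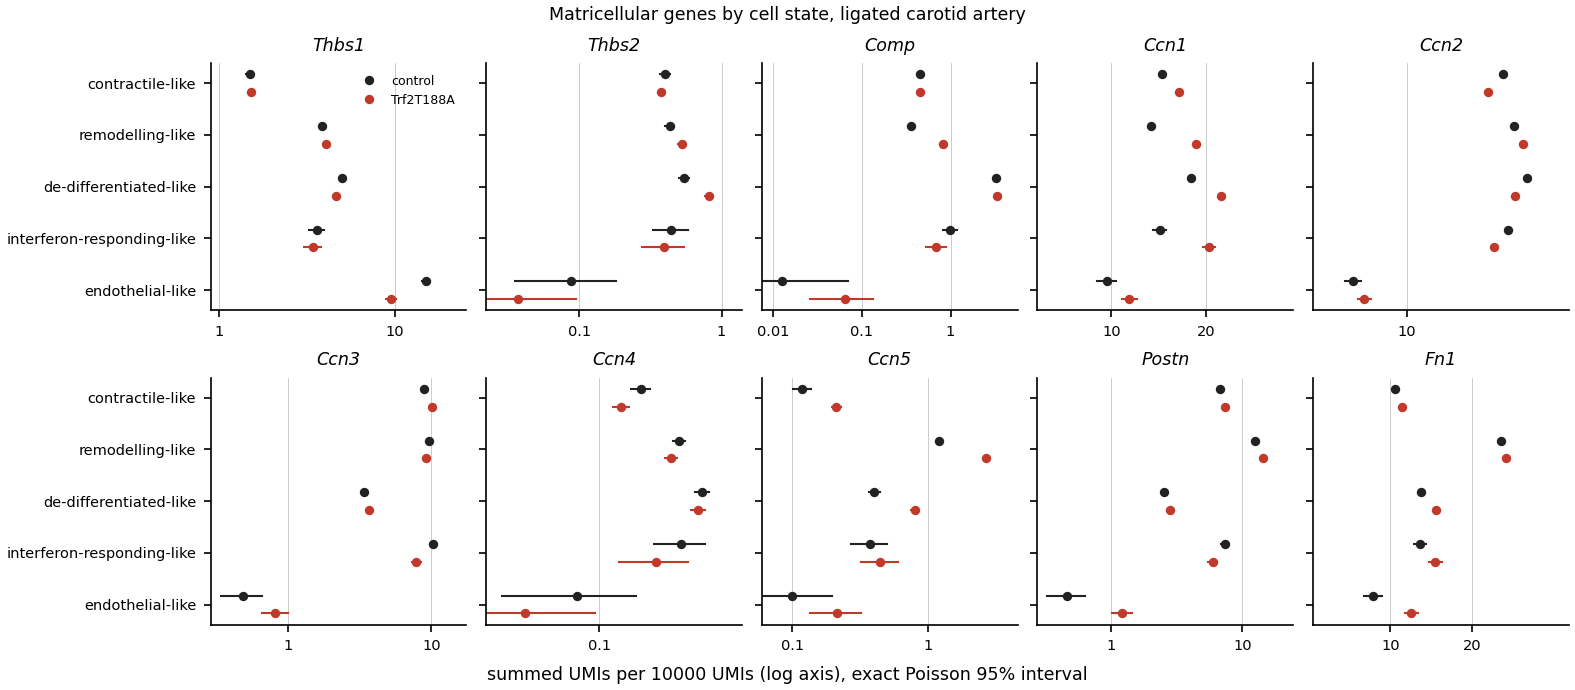
Level of the 10 matricellular genes in each cell state of ligated carotid arteries (summed UMIs per 10000 UMIs on a log axis, a scale of its own for each gene). Points are the control library (black) and the *Trf2T188A* library (red) with exact Poisson 95% intervals, drawn up to the axis edge. *Thbs1* was highest in endothelial-like cells, *Postn* and *Fn1* in remodelling-like cells, and *Ccn5* was higher in *Trf2T188A* cells of the 3 largest states.

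After ligation remodelling-like cells had 3 of the 10 genes above contractile-like cells (*Thbs1*, *Ccn5* and *Fn1*) against 1.99% of all genes, and 0 below against 3.07%. The list that named contractile-like cells here shares no gene with the contractile markers summed above. By those markers remodelling-like cells had the higher sum, as given below. De-differentiated-like cells had 4 above (*Thbs1*, *Comp*, *Ccn4* and *Ccn5*; background 4.06%) and 2 below (*Ccn3* and *Postn*; background 2.31%), the same genes as in plaque complement and acute-phase cells. Interferon-responding-like cells had *Thbs1* and *Ccn5* above (2 of 10, background 1.83%) and 0 below (background 2.29%).

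*Postn* was 12.5 UMIs per 10000 in control and 14.3 in *Trf2T188A* remodelling-like cells, against 6.74 and 7.36 in contractile-like and 2.53 and 2.82 in de-differentiated-like cells. *Fn1* was highest in the same state, with 25.5 and 26.7, and its other smooth muscle levels lay between 10.4 and 14.8. *Comp* was a gene of the de-differentiated-like state, with 3.22 and 3.36 there and 0.456 and 0.452 in contractile-like cells, a fold of 7.06 and 7.42. Remodelling-like cells, which had the highest contractile marker sum (497 and 507 UMIs per 10000 against 428 and 449 in contractile-like cells), thus combined contractile markers with high periostin and fibronectin.

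*Ccn3* was lower in de-differentiated-like than in contractile-like cells. Its levels were 8.82 and 10.1 in contractile-like, 9.61 and 9.20 in remodelling-like and 3.42 and 3.70 in de-differentiated-like cells. *Ccn1* (between 13.4 and 22.4 in the smooth muscle states) and *Ccn2* (between 28.1 and 45.8) stayed within 2-fold of contractile-like cells. *Ccn4* reached 0.395 and 0.374 in de-differentiated-like cells and *Thbs2* 0.547 and 0.82.

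Endothelial-like cells set off the genes of smooth muscle. *Thbs1* was highest there, with 15.1 (14.3 to 16.0) in control and 9.54 (8.96 to 10.1) in *Trf2T188A* cells, a fold over contractile-like cells of 10.2 and 6.31. It was the single gene of the 10 above contractile-like cells (background 10.9%). The 6 genes below were *Thbs2*, *Comp*, *Ccn2*, *Ccn3*, *Ccn4* and *Postn*, against 14.5% of all genes. *Ccn2* was 5.09 and 5.86 in endothelial-like cells, *Ccn3* 0.486 and 0.822, and *Postn* 0.461 and 1.21. *Comp* had 1 UMI in the control and 7 in the mutant cells.

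Contractile-like cells are the only state named in both experiments, from a different marker list in each. Their levels can be set side by side without a ratio, because diet, *Apoe* genotype, vessel, reporter selection and processing also differ. *Thbs1* was 0.0812 and 0.217 in plaques and 1.49 and 1.51 after ligation. *Ccn1* was 7.08 and 5.64 in plaques and 14.5 and 16.4 after ligation. *Ccn5* was 0.895 and 1.08 in plaques and 0.118 and 0.212 after ligation. *Ccn3* ran from 8.65 to 10.1 over the 4 libraries and *Fn1* from 8.42 to 11.1.

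The second question was what the smooth muscle TRF2 mutant changes within a state. A gene was called when its mutant level lay past 1.5-fold from the control level and it had at least 50 UMIs over both libraries of the state. The median log2 ratio of all genes lay between -0.06 and 0.02 in every state. Over the 9 plaque states 82 pairs of gene and state could be compared, of which 10 were higher and 7 lower in *Trf2T188A/ApoE-/-* cells, against 3.77% and 5.17% of such pairs of all genes. Over the 5 ligation states it was 46 pairs, with 6 higher and 1 lower, against 3.4% and 3.52%. Such background shares depend on the UMI minimum. With 10 or 200 UMIs in place of 50, the share of all genes past the fold moved in all 14 states, upward and downward. Ratios of low levels depend on how they are formed: with means over cells plus a pseudocount of 1 in place of summed levels, 4 of the 17 plaque calls and 3 of the 7 ligation calls stayed past the fold, and the others kept their direction. *Thbs1* in plaque contractile-like cells (0.14) and *Ccn5* in ligation contractile-like cells (0.10) were among those that did not.

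**Figure D3:**
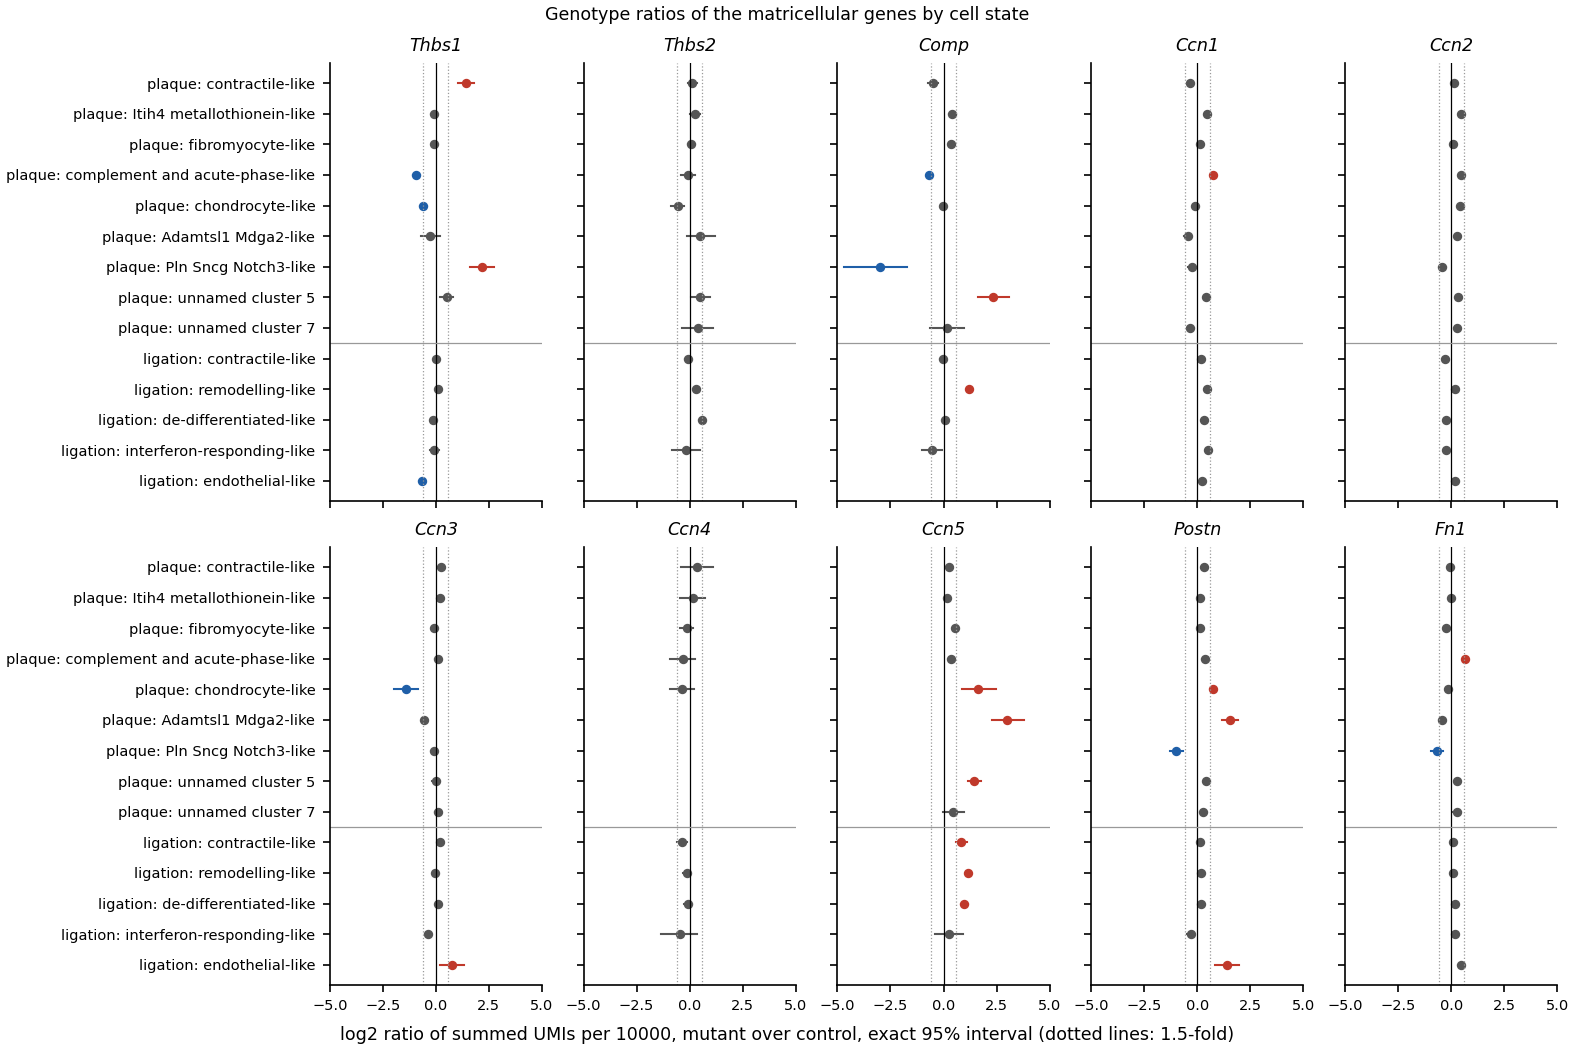
Genotype log2 ratio (mutant over control) of summed UMIs per 10000 for the 10 genes in each state of plaques (upper rows) and ligated arteries (lower rows), with exact 95% intervals. Red points are past 1.5-fold (dotted lines) upward, blue points downward, grey points between, and pairs under 50 UMIs are not drawn. Every *Ccn5* point lies to the right of 0.

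*Ccn5* was the gene that most regularly had more transcript in mutant cells. After ligation it was called in the 3 largest states. In remodelling-like cells it was 1.20 UMIs per 10000 in control and 2.68 in *Trf2T188A* cells, a log2 ratio of 1.16 (1.10 to 1.23). In de-differentiated-like cells it was 0.403 and 0.797, a log2 ratio of 0.98 (0.82 to 1.15), and in contractile-like cells 0.118 and 0.212, a log2 ratio of 0.84 (0.59 to 1.09). The intervals of control and mutant did not overlap in any of the 3 states. With each cell thinned to 5000 UMIs, 23.9% of control and 46.5% of *Trf2T188A* remodelling-like cells had a *Ccn5* UMI (32.4% and 63.6% unthinned, at medians of 8677 and 10869), against 0.0% and 3.12% of endothelial-like cells. In interferon-responding-like cells *Ccn5* was 0.373 and 0.447, and its interval (-0.39 to 0.90) held 0. Endothelial-like cells, with too few UMIs for a call, had 0.0998 (8 UMIs, all in a single cell) and 0.213 (23 UMIs in 5 cells), and these intervals overlapped those of contractile-like cells in both libraries. How much of the *Ccn5* in contractile-like cells is free RNA was not tested. Of the 9 markers of the remodelling-like state, none of them at 0, 7 were higher in mutant remodelling-like and 6 in mutant de-differentiated-like cells, with *Eln* giving most of the difference. Their sum went from 110 to 164 UMIs per 10000 in remodelling-like cells (*Eln* 59.05 and 98.9) and from 42.5 to 73.6 in de-differentiated-like cells (*Eln* 26.0 and 53.7). Their part in the *Ccn5* calls was not tested.

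In plaques *Ccn5* was called in 3 states and its ratio was above 0 in all 8 states with enough UMIs, with intervals above 0 in 7 of them. In *Adamtsl1 Mdga2* cells it was 0.211 UMIs per 10000 in *ApoE-/-* and 1.69 in *Trf2T188A/ApoE-/-* cells, a log2 ratio of 3.01 (2.31 to 3.79). In chondrocyte-like cells it was 0.0627 and 0.196, a log2 ratio of 1.64 (0.87 to 2.46), from 21 and 46 UMIs. Without the top cell of each library this *Ccn5* ratio stayed past the fold but was no longer called, since a call also needs 50 UMIs. In cluster 5 it was 1.09 and 2.95, a log2 ratio of 1.44 (1.15 to 1.75), where a single mutant cell held 47.6% of the UMIs and the ratio was 0.96 without the top cell of each library. It was 0.40, and no longer past the fold, among cells without a cycling-marker UMI, and stayed past the fold under 8 of 10 alternative settings. Fibromyocyte-like cells lay just under the fold at 0.53 (0.42 to 0.64), with 2.43 and 3.51. In contractile-like cells the ratio was 0.27 and in *Itih4* metallothionein cells 0.19. The plaque states with a call were thus not those where *Ccn5* was highest.

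Seen by state, ligation contractile-like cells had 1 of 10 genes higher (*Ccn5*; background 2.08%) and 0 lower (2.75%). Remodelling-like cells had 2 higher, *Ccn5* and *Comp* (background 4.14%), and 0 lower (2.74%). De-differentiated-like cells had 1 higher, *Ccn5* (background 2.79%), and 0 lower (2.07%). Interferon-responding-like cells had 0 higher (background 4.3%) and 0 lower (6.75%). Counts of 1 or 2 genes are too small to set the list apart from all genes, and *Ccn5* itself was at the 99.2nd percentile or above of all compared genes in each of the 3 states where it was called.

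*Comp* was the other gene called in remodelling-like cells, at 0.355 UMIs per 10000 (0.329 to 0.382) in control and 0.823 (0.787 to 0.861) in *Trf2T188A* cells, a log2 ratio of 1.22 (1.09 to 1.34). It did not differ beyond 1.5-fold in de-differentiated-like cells, where it is most abundant, with a log2 ratio of 0.06. At a higher clustering resolution, which left 1040 control and 937 mutant cells under the remodelling-like name, the *Comp* ratio was 0.31 and no longer past the fold. In remodelling-like cells the 9 fibromyocyte markers summed to 7.80 in control (led by *Timp1* with 1.40) and 13.1 in mutant cells (led by *Lum* with 3.67). The 9 de-differentiated markers summed to 4.16 and 7.92, led by *Lum* in both libraries (1.395 and 3.67). None of either list was at 0, and the part of these lists in the *Comp* and *Ccn5* values was not tested. *Thbs2* in de-differentiated-like cells lay at the edge of the call, with 0.547 and 0.82 and a log2 ratio of 0.58 (0.44 to 0.73), just under 1.5-fold. *Ccn1* was above control in all 5 ligation states, with log2 ratios from 0.18 to 0.53 and intervals above 0, but was called in none. The same held for *Fn1*, with log2 ratios from 0.065 to 0.466. The ratio of *Ccn2* took both signs over these states, from -0.27 to 0.20.

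Ligation endothelial-like cells, outside the cell type that the transgene promoter targets, had *Ccn3* and *Postn* higher (2 of 6 compared genes, background 5.39%) and *Thbs1* lower (1 of 6, background 7.35%). The *Thbs1* log2 ratio was -0.67 (-0.79 to -0.55). *Postn* had a log2 ratio of 1.39 (0.86 to 1.96) and *Ccn3* of 0.76 (0.20 to 1.34), from 37 and 131 and from 39 and 89 UMIs. All 8 contractile markers were detected in these cells in both libraries, and their sum was 35.8 UMIs per 10000 in control and 65.9 in mutant cells, led by *Acta2* with 17.1 and 30.2. Without the 5% of cells with the highest doublet scores the directions turned, to -0.67 for *Postn* and -0.66 for *Ccn3*. The part of smooth muscle RNA in these 2 results was not tested further.

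Plaque contractile-like cells had 1 gene higher in the mutant (*Thbs1*; background 1.5%) and 0 lower (background 2.54%). *Thbs1* was 0.0812 UMIs per 10000 (0.067 to 0.0975) in *ApoE-/-* and 0.217 (0.183 to 0.255) in *Trf2T188A/ApoE-/-* cells, a log2 ratio of 1.42 (1.05 to 1.78). It stayed past the fold in cluster 0 alone and in cluster 2 alone. Of the 10 genotype ratios of this pooled state, 8 lay outside the main interval with cluster 0 alone and 7 with cluster 2 alone. Of cells thinned to 8000 UMIs, 4.72% and 7.39% had a *Thbs1* UMI, and unthinned 10.4% and 12.2%. The levels are far under those of fibromyocyte-like cells, and how much of them is free RNA was not tested. The sum of the 9 immune markers was 0.0798 and 0.193 UMIs per 10000 in these cells, led by *Lyz2* with 0.0268 and 0.0658, and *Ptprc* was at 0 in both libraries. The 8 endothelial markers summed to 0.441 and 0.453, led by *Pecam1*, with *Cdh5* at 0 in both. The 9 fibromyocyte markers, none at 0, summed to 1.98 and 3.16, led by *Dcn* with 0.525 and 1.16. The part of these 3 lists in the *Thbs1* value was not tested.

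No compared gene was called in 3 plaque states. *Itih4* metallothionein cells had 0 of 10 higher (background 1.87%) and 0 lower (3.46%), and fibromyocyte-like cells 0 of 10 higher (3.07%) and 0 lower (6.4%). Cluster 7 had 0 of 8 compared genes higher (4.58%) and 0 lower (5.73%). In the fibromyocyte-like state, where *Thbs1* and *Thbs2* are most abundant, *Thbs1* was 9.74 in *ApoE-/-* and 9.31 in *Trf2T188A/ApoE-/-* cells, and its log2 ratio had an interval of -0.13 to -0.01. *Thbs2* (-0.09 to 0.25) and *Ccn4* (-0.44 to 0.14) had intervals that held 0. In *Itih4* metallothionein cells *Ccn1* went from 5.62 to 7.82 and *Ccn2* from 31.1 to 43.1, log2 ratios of 0.48 and 0.47. In the same cells 7 of the 16 dissociation-response genes were past 1.5-fold upward, with a median log2 ratio of 0.48, and all 16 were above 0. Their share of UMIs was 0.973% and 1.35%. The part of dissociation in the *Ccn1* and *Ccn2* values was not tested.

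Complement and acute-phase cells had 2 genes higher (*Ccn1* and *Fn1*; background 3.5%) and 2 lower (*Thbs1* and *Comp*; background 5.2%). *Fn1* was 16.1 UMIs per 10000 in *ApoE-/-* and 25.2 in *Trf2T188A/ApoE-/-* cells, a log2 ratio of 0.65 (0.59 to 0.70), and this call held under each of 13 alternative settings. *Ccn1* was 5.04 and 8.39, a log2 ratio of 0.74 (0.64 to 0.83), and turned to -0.15 among cells with a low share of dissociation-response UMIs. *Thbs1* was 3.18 and 1.67, a log2 ratio of -0.93 (-1.10 to -0.77). *Comp* was 5.16 and 3.25, a log2 ratio of -0.67 (-0.79 to -0.55). Single *ApoE-/-* cells held 30.5% of the *Thbs1* and 42.3% of the *Comp* UMIs, and without the top cell of each library the ratio was -0.92 for *Thbs1* and -0.15 for *Comp*. Among cells with a Confetti UMI the directions turned, to 0.06 for *Thbs1* and 0.32 for *Comp*, and among cells with a low dissociation share the ratios were -2.24 and -1.58. *Thbs1* stayed past the fold under 8, *Comp* under 5 and *Ccn1* under 9 of 13 alternative settings. The share of these cells with a Confetti UMI was 75.9% in *ApoE-/-* and 85.4% in *Trf2T188A/ApoE-/-*. All 8 contractile markers were higher in the mutant cells of this state, with a sum of 72.2 (led by *Tagln* with 24.9) and 86.7 (*Acta2* 32.7), as were 6 of the 10 chondrocyte markers, at 5.69 (*Cytl1* 3.09) and 8.62 (*Ibsp* 2.30). The 8 immediate-early markers summed to 54.4 and 61.4 (*Egr1* 19.1 and 18.4), and none of these 3 lists had a gene at 0. Fibroblast markers summed to 3.37 and 2.63 (*Dpt* 1.68 and 1.04, with *Dpp4* at 0 in both libraries) and the 9 immune markers to 0.854 and 1.18 (*Cd74* 0.810 and 1.10, with *Ptprc* and *Laptm5* at 0 in both). The 8 interferon markers, 6 of them higher in mutant cells, summed to 3.27 and 4.41 (*Isg15* 0.868 and 1.205). Of the 9 fibromyocyte markers 8 were higher in mutant cells, though their sum was 178 (*Dcn* 83.5) and 171 (*Lum* 72.45). The part of these lists in the calls was not tested.

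Chondrocyte-like cells had 2 genes higher, *Ccn5* and *Postn* (background 5.6%), and 2 lower, *Thbs1* and *Ccn3* (background 7.01%). *Postn* was 2.29 UMIs per 10000 and 3.79, a log2 ratio of 0.72 (0.58 to 0.87). *Ccn3* was 0.406 and 0.153, a log2 ratio of -1.41 (-1.98 to -0.87), alongside a lower sum of the 8 contractile markers (7.15 and 3.31, led by *Acta2* with 2.90 and 1.37). *Thbs1* was 2.70 and 1.80, a log2 ratio of -0.59 (-0.76 to -0.42), close to the fold, and it passed the fold under 5 of 13 alternative settings. *Comp* and *Fn1*, which were highest in this state, were not called, with log2 ratios of -0.03 and -0.17. Marker lists also differed between the libraries in this state, and the first 5 given here had no gene at 0. The 10 chondrocyte markers summed to 714 in *ApoE-/-* and 395 in mutant cells, led by *Col2a1* with 306 and 198. The 9 complement and acute-phase markers summed to 15.7 (led by *Serpina3n* with 5.34) and 41.99 (led by *Lcn2* with 22.4), and the 9 fibromyocyte markers to 158 and 230, led by *Dcn* with 104 and 162. The 7 *Itih4* metallothionein markers went from 8.75 to 14.1 (*Mt1* 6.096 and 10.1) and the 8 interferon markers from 0.773 to 0.345 (*Isg15* 0.272 and 0.149). Of the 9 fibroblast markers 8 were higher in mutant cells, with a sum of 0.561 and 1.33 (*Pdgfra* 0.298 and 0.485, with *Dpp4* at 0 in both libraries and *C7* in *ApoE-/-*). The part of these lists in the calls was not tested. A Confetti UMI was found in 61.7% of the *ApoE-/-* and 81.0% of the *Trf2T188A/ApoE-/-* cells of this state, and the part of this difference in the calls was not tested.

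*Adamtsl1 Mdga2* cells had 2 of 8 compared genes higher, *Ccn5* and *Postn* (background 5.86%), and 0 lower (background 6.76%). *Postn* was 0.891 (0.702 to 1.12) and 2.58 (2.29 to 2.89), a log2 ratio of 1.53 (1.17 to 1.92). A single mutant cell held 35.6% of the *Ccn5* UMIs and the ratio was 2.91 without the top cell of each library. The 8 markers of this state summed to 39.2 and 29.0 UMIs per 10000, led by *Adamtsl1* with 19.6 and 12.6. The 9 fibromyocyte markers went from 16.5 (led by *Ltbp2* with 5.19) to 41.3 (*Lum* 13.5) and the 9 complement and acute-phase markers from 6.84 (*C4b* 2.37) to 14.9 (*Lcn2* 3.81). The 7 *Itih4* metallothionein markers went from 23.9 to 36.2 (*Mt1* 11.1 and 19.1), with 6 of them higher in mutant cells. None of these lists had a gene at 0, and their part in the 2 calls was not tested. *Pln Sncg Notch3* cells, with 23 mutant cells the smallest state, had *Thbs1* higher (1 of 7 compared genes, background 6.71%) and *Comp*, *Postn* and *Fn1* lower (3 of 7, background 6.79%). *Thbs1* was 0.515 and 2.33, a log2 ratio of 2.18 (1.62 to 2.76), but 72.9% of its mutant UMIs came from a single cell, and the ratio was 0.70 without the top cell of each library. *Comp* was 0.976 and 0.121, from 72 and 5 UMIs, a log2 ratio of -3.01 (-4.67 to -1.72). *Postn* was 5.72 and 2.89 (-0.99, interval -1.29 to -0.69) and *Fn1* 5.27 and 3.30 (-0.68, interval -0.97 to -0.39). Without the top cell of each library *Fn1* was at -0.55 and no longer past the fold. *Comp* then stayed past the fold but was no longer called, since a call also needs 50 UMIs. All 9 fibroblast markers were at 0 in the mutant cells of this state and summed to 0.298 UMIs per 10000 in the *ApoE-/-* cells. The 9 fibromyocyte markers summed to 3.84 (led by *Lum* with 1.99) and 2.16 (*Dcn* 0.825, with *Fbln2* at 0). Complement and acute-phase markers summed to 2.17 and 4.39 (*Serpina3n* 0.8 and 1.96, with *Saa3* at 0 in the mutant), and the 8 immediate-early markers, none at 0, to 49.5 and 22.8 (*Egr1* 13.3 and 8.32). The part of these 4 lists in the calls was not tested. The low-depth cluster 5 had *Comp* and *Ccn5* higher (2 of 9 compared genes, background 5.9%) and 0 lower (background 5.48%), with *Comp* at 0.177 and 0.885, a log2 ratio of 2.32 (1.64 to 3.07). Complement and acute-phase markers summed there to 6.31 (led by *Serpina3n* with 2.13) and 12.5 (led by *Lcn2* with 3.98). All 9 fibromyocyte markers were higher in mutant cells, with a sum of 15.5 and 21.9 (*Lum* 7.9 and 9.5). The 7 *Itih4* metallothionein markers, 6 of them higher, went from 24.8 to 34.4 (*Mt1* 9.54 and 11.2). None of these lists had a gene at 0, and their part in the 2 cluster 5 calls was not tested.

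The other genes of the pathway were read from fixed lists: 11 further matricellular genes (10 of them in the ligation files), 14 receptors, 20 YAP/TAZ targets besides the 10 genes, and 16 dissociation-response genes. Genes past 1.5-fold in the same direction in at least 2 states of an experiment are named. For all genes, 3.77% of plaque pairs of gene and state were higher and 5.17% lower, and 3.4% of ligation pairs were higher and 3.52% lower. Among the further matricellular genes 16 of 68 plaque pairs were higher and 5 lower in *Trf2T188A/ApoE-/-* cells, and 7 of 38 ligation pairs were higher and 1 lower. These pairs repeat 9 genes over the states, and the list was chosen with earlier results of these data known. The difference from all genes was not tested. Osteopontin (*Spp1*), a mineral-binding integrin ligand, was higher in 4 plaque states. It went from 55.4 to 115 UMIs per 10000 in fibromyocyte-like cells, from 21.4 to 42.9 in complement and acute-phase cells, from 1.48 to 2.44 in cluster 5 and from 0.305 to 20.4 in *Adamtsl1 Mdga2* cells, and it was lower in cluster 7 (-0.86). The *Adamtsl1 Mdga2* state had 42 and 40 cells, and the part of single cells in its *Spp1* value was not tested. *Spp1* was not called in chondrocyte-like cells, where the further matricellular genes had their highest sum (690 and 596). The calcium-binding *Smoc2* was also higher in 4 plaque states, with log2 ratios from 0.61 to 1.17, and *Sparc*, a collagen-binding protein, in 3, with log2 ratios from 0.61 to 0.76. *Sparcl1* was higher in 2 plaque states (0.85 and 0.89) and lower in chondrocyte-like cells (-1.21).

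Tenascin-C (*Tnc*), an anti-adhesive protein of injured vessels, was higher in states of both experiments. In remodelling-like cells it went from 0.334 to 1.18 UMIs per 10000, a log2 ratio of 1.82 (1.69 to 1.94), and it was also higher in de-differentiated-like (0.85) and interferon-responding-like cells (0.80). In plaques *Tnc* was higher in complement and acute-phase cells (0.78) and *Adamtsl1 Mdga2* cells (1.54) and lower in cluster 7 (-1.76). *Tnc* therefore joined *Ccn5* in both the remodelling-like and the de-differentiated-like state after ligation.

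Of the receptors, 1 of 101 plaque pairs was higher and 5 lower, and 3 of 59 ligation pairs were higher and 5 lower (backgrounds as above). Whether such counts differ from those of all genes was not tested. The fibronectin receptor subunit *Itga5* was lower in *Adamtsl1 Mdga2* (-0.84) and *Pln Sncg Notch3* cells (-1.23). After ligation *Itga4*, another fibronectin-binding subunit, was higher in remodelling-like (0.77) and de-differentiated-like cells (1.04), and the laminin-binding *Itga6* was lower in contractile-like (-0.73) and endothelial-like cells (-0.90).

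Of the YAP/TAZ targets, 8 of 134 plaque pairs were higher and 7 lower, and after ligation 5 of 77 were higher and 1 lower, also without a test against all genes. *Ankrd1*, a nuclear stretch-response gene, was higher in plaque contractile-like (0.73) and complement and acute-phase cells (2.08). It was also higher in ligation de-differentiated-like (0.67), interferon-responding-like (0.82) and endothelial-like cells (0.65, interval -0.20 to 1.54). *F3*, tissue factor, was higher in complement and acute-phase (1.26) and chondrocyte-like cells (2.23) and lower in fibromyocyte-like (-1.16) and *Adamtsl1 Mdga2* cells (-1.17). *Nt5e* was higher in fibromyocyte-like (1.86) and chondrocyte-like cells (0.63), and *Gadd45a* lower in fibromyocyte-like cells (-0.74) and cluster 5 (-1.86) but higher in *Itih4* metallothionein cells (0.84). Of the dissociation-response genes 16 of 144 plaque pairs were higher and 7 lower, and 8 of 80 ligation pairs were higher and 1 lower. For all genes the shares were 3.77% and 5.17% in plaques and 3.4% and 3.52% after ligation, and the difference was not tested. *Hspa1b* was higher in 4 plaque states, *Hspa1a* in 2, and *Atf3* and *Nr4a1* lower in 2. *Atf3* was higher in *Itih4* metallothionein cells (0.69), and *Nr4a1* was higher in 3 ligation states.

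Genes were also ranked by how alike their pattern was over all points of state and library (18 in plaques, 10 after ligation). The measure was Pearson's r of log2 levels, a description without a test, since points of a library share its depth and processing. In plaques *Ccn3* was most like the contractile genes *Cald1*, *Myl9* (both r = 0.98) and *Csrp1* (0.97), and ran against *Comp* (-0.90) and *Fn1* (-0.82). *Comp* was like *Olfml3* (0.97) and *Fmod* (0.96). *Fn1* was most like *Creb3l1*, *Col5a2* (both 0.96) and *Cgref1* (0.95), and *Thbs1* most like *Phlda3* (0.90), *Sdc1* (0.89) and *Slc39a13* (0.88). *Thbs2* went with *Col5a1* (0.92), *Pdia5* (0.90) and *Tln2* (0.88), and *Ccn5* with *Sulf2* (0.90), *Adamts2* (0.88) and *Ctsl* (0.87). *Postn* went with *Anxa3* (0.84), *Itih2* (0.78) and *Ankrd1* (0.76), and *Ccn4* with *Pxylp1* (0.92), *Trim2* (0.91) and *Cyp7b1* (0.88). *Ccn1* was most like *Rcsd1* (0.83), *Irs2* (0.81) and the immediate-early gene *Jun* (0.80), and *Ccn2* most like *Ltbp3* (0.86), *Fbxl8* (0.82) and *Tnfaip3* (0.80). *Ccn1* and *Ccn2*, often used together as YAP/TAZ readouts, had r = 0.02 with each other in plaques and 0.78 after ligation.

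After ligation r between 2 of the 10 genes ran from -0.87 (*Ccn3* and *Thbs1*) to 0.96. *Ccn3* and *Postn* had r = 0.96, *Ccn5* and *Fn1* 0.96, *Ccn2* and *Thbs2* 0.95, *Ccn5* and *Comp* 0.45 and *Ccn5* and *Thbs1* -0.07. The part of the endothelial-like points was not tested. *Ccn5* was most like elastin (*Eln*, 0.97), *Tmem119* and *Fhdc1* (both 0.96), and *Fn1* most like *Tmem119* (0.98), *Ankrd1* (0.98) and *Fhdc1* (0.97), so both shared a pattern led by remodelling-like cells. *Postn* was most like the contractile genes *Ppp1r14a* (0.99) and *Cnn1* (0.99) together with *Adam33* (0.99). *Comp* was most like *Kank4*, *Gdf10* (both 0.98) and *Adamts15* (0.97), and *Thbs1* like *Apoe*, *Ptk2b* and *Cxcl2* (all 0.96). *Ccn3* was most like *Wfdc1*, *Kcnh2* and *Kcnab1*, *Ccn2* like *Cnn2*, *Fat1* and *Sdc2* (all 0.99), *Thbs2* like *Sidt2*, *Ikbip* and *D630045J12Rik*, *Ccn4* like *Itsn1*, *Chsy1* and *Scara3*, and *Ccn1* like *Cd302*, *Fkbp7* and *Vkorc1*.

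The 10 genes lie on 7 chromosomes of GRCm38 and none are neighbours. *Thbs1* lies on chromosome 2 (118111876 to 118127133), as does *Ccn5* (163820861 to 163833146). *Postn* (54361109 to 54391037) and *Ccn1* (145646976 to 145649981) lie on chromosome 3, and *Ccn3* (54745702 to 54754039) and *Ccn4* (66891320 to 66923201) on chromosome 15. *Fn1* lies on chromosome 1 (71585520 to 71653200), *Comp* on chromosome 8 (70373558 to 70382066), *Ccn2* on chromosome 10 (24595442 to 24598683) and *Thbs2* on chromosome 17 (14665500 to 14694235).

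Promoter sequences from RefSeq (GRCm38.p6), 300 bases each, were available for *Thbs2*, *Ccn1* and *Postn*. *Ccn1* and *Postn* are shown because both were called higher in a plaque state of mutant cells while their patterns over plaque states differed (r = 0.13). Both strands were searched for the TEAD motif CATTCC, through which YAP and TAZ act, the AP-1 motif TGANTCA, the CArG box of contractile genes and TATAAA, with capitals marking each match. CATTCC was found in 14.7% of 32851 promoters of this length, TGANTCA in 7.81%, the CArG box in 1.63% and TATAAA in 13.6%. *Ccn1* held CATTCC and TATAAA once each, and *Postn* (the entry shown) and *Thbs2* held TATAAA once. A second *Postn* entry, at 54359017 to 54359316, held 0 matches of any motif. A match is a stretch of letters, and no binding was measured.
Ccn1, chr3:145649936-145650235, minus strand: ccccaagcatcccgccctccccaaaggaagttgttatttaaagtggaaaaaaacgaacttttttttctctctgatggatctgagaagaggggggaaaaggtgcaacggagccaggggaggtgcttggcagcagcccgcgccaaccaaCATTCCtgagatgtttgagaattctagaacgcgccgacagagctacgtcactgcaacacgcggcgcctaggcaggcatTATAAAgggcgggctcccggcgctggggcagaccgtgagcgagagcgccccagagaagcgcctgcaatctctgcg
Postn, chr3:54360857-54361156, plus strand: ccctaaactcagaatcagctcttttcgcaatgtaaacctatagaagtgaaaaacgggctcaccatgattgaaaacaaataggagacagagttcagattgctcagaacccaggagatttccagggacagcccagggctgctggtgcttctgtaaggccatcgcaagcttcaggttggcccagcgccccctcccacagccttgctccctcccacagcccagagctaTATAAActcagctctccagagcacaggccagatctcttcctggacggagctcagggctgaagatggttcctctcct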

How the data were processed

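The deposited files hold a signal per gene and cell on a linear scale: the authors counted UMIs against GRCm38 and scaled every cell to a sum of 10000. The submitters' processing notes name Cell Ranger 7.0.0, Seurat 4.3.0 and R 4.2.2 for plaques, and Cell Ranger 6.1.2, Seurat 3.2.1 and R 3.6.2 after ligation. The supplement of the paper disagrees on R for both experiments and on Seurat after ligation. Dividing each cell by the value of a single UMI gave whole counts within 0.01 for 100% of values, and all sums use these counts.

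Cells of both libraries of an experiment were clustered together in Seurat 5.3.0 (R 4.3.3, Matrix 1.6.5) without batch correction, with 2000 variable genes, 18 components and a resolution of 0.9 for plaques, and 17 components and 0.2 after ligation. Neither the 10 genes nor the partner lists could be variable genes. Marker lists gave the clusters their names, by limits chosen only once cluster values had been seen. Other steps used Python 3.11.15 (matplotlib 3.10.9 for figures, scanpy 1.11.5 for doublet scores, numpy 2.4.6, pandas 2.3.3, anndata 0.12.19, and scipy 1.17.1 for intervals). The measures were tested on simulated data.

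A level is the summed UMIs of a gene per 10000 summed UMIs of a state. Genotype calls needed 50 UMIs over both libraries and a fold past 1.5. State calls needed a fold past 2 in both libraries and 50 UMIs over the state and contractile-like cells together. Text names the 10 genes, partner genes past the fold in 2 states of an experiment in the same direction (with their opposite calls in that experiment), and the 3 genes most alike in pattern among genes with at least 200 UMIs. Some genes that this rule or the clusters would name are not reported here. The 10 genes and the lists were chosen with earlier results of these data known. With 1 library per genotype there was no test, and cells were not treated as replicates.

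Scrublet (in scanpy) called 1 and 2 plaque cells and 1 and 0 ligation cells doublets, too few to be credible, so no cell was removed and removal of the top 5% of scores was an alternative. Thinning to 8000 UMIs left out 92 *ApoE-/-* and 122 *Trf2T188A/ApoE-/-* cells, and thinning to 5000 left out 325 control and 154 *Trf2T188A* cells. Other alternatives changed the level, the totals, the clustering, the cells, the fold and the UMI minimum. The deposited cells had been filtered by the authors, with at most 7.97% mitochondrial UMIs in plaques and 6.00% after ligation.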

Additional observations from a re-analysis of the deposited data

Results flagged for a closer look

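Genotype ratios of the same gene that were called in opposite directions in different plaque states were flagged as differences between groups of cells. *Thbs1* had a log2 ratio (mutant over control) of 1.42 in contractile-like and 2.18 in *Pln Sncg Notch3* cells, against -0.93 in complement and acute-phase and -0.59 in chondrocyte-like cells. *Comp* had 2.32 in cluster 5, against -0.67 in complement and acute-phase and -3.01 in *Pln Sncg Notch3* cells. *Postn* had 0.72 in chondrocyte-like and 1.53 in *Adamtsl1 Mdga2* cells, against -0.99 in *Pln Sncg Notch3* cells. *Fn1* had 0.65 in complement and acute-phase cells, against -0.68 in *Pln Sncg Notch3* cells. Each rests on 1 library per genotype, and the difference was not tested.

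The plaque files list a human TRF2 transgene that was flagged as data outside the comparisons. It had 10 UMIs, all in the *Trf2T188A/ApoE-/-* library, and the difference was not tested.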

How the results depend on the processing

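No paired analysis was possible because there was 1 library per genotype in each experiment, and for the same reason no test was made. Intervals cover counting error only, so differences between mice, dissections and runs are not covered. The *Pln Sncg Notch3* state had 23 mutant cells, and single cells held large shares of some genes. Settings that drop cycling cells, take a single contractile-like cluster or drop the cell with the most UMIs were added after seeing the data. Over all settings 357 counts of genes past a fold stayed within 1.5 times the main count and 113 did not. Of the single values, 1690 lay inside the interval of the main value, 737 lay outside it, and 5 called ratios turned direction. At the lower resolution no plaque cluster was named complement and acute-phase or *Pln Sncg Notch3* and no ligation cluster de-differentiated-like, so these have no value there. *Ccn5* in ligation remodelling-like cells stayed past 1.5-fold under 13 of 13 settings (0.73 to 1.24), and *Fn1* in complement and acute-phase cells (0.60 to 0.75) and *Postn* in chondrocyte-like cells (0.64 to 0.92) did too.

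In complement and acute-phase cells with a Confetti UMI, *Thbs1* was at 0.061 and *Comp* at 0.319, and in those with a low share of dissociation-response UMIs *Ccn1* was at -0.151. Without the top 5% of Scrublet scores, ligation endothelial-like cells had *Ccn3* at -0.657 and *Postn* at -0.674. The cause was not tested for these or for any count below.

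The counts that follow are genes past the genotype fold (higher or lower in the mutant) or past 2-fold from contractile-like cells, as the main count to the alternative count.
Means over cells gave higher genes in plaque contractile-like (1 to 2), fibromyocyte-like (0 to 1), complement and acute-phase (2 to 1), cluster 7 (0 to 1) and de-differentiated-like (1 to 2), and lower genes in complement and acute-phase (2 to 0), chondrocyte-like (2 to 1), *Adamtsl1 Mdga2* (0 to 2), cluster 7 (0 to 1) and interferon-responding-like (0 to 2). A pseudocount of 1 gave higher genes in plaque contractile-like (1 to 0), fibromyocyte-like (0 to 1), complement and acute-phase (2 to 1), *Adamtsl1 Mdga2* (2 to 1), *Pln Sncg Notch3* (1 to 0), cluster 5 (2 to 0), ligation contractile-like (1 to 0), remodelling-like (2 to 1) and de-differentiated-like (1 to 0), and lower genes in complement and acute-phase (2 to 0), chondrocyte-like (2 to 0), *Pln Sncg Notch3* (3 to 1) and interferon-responding-like (0 to 1). Thinned cells had higher genes in *Itih4* metallothionein (0 to 1), fibromyocyte-like (0 to 1), *Adamtsl1 Mdga2* (2 to 1), *Pln Sncg Notch3* (1 to 0) and de-differentiated-like (1 to 2), and lower genes in plaque contractile-like (0 to 1), complement and acute-phase (2 to 0), chondrocyte-like (2 to 0), *Adamtsl1 Mdga2* (0 to 1) and interferon-responding-like (0 to 1). Plaque cells with a Confetti UMI had higher genes in fibromyocyte-like (0 to 1), and lower genes in plaque contractile-like (0 to 1), complement and acute-phase (2 to 0), chondrocyte-like (2 to 1), *Adamtsl1 Mdga2* (0 to 1) and cluster 7 (0 to 1). Cells with a low dissociation share had higher genes in *Itih4* metallothionein (0 to 2), fibromyocyte-like (0 to 1), complement and acute-phase (2 to 1), cluster 7 (0 to 1), de-differentiated-like (1 to 3) and interferon-responding-like (0 to 2), and lower genes in plaque contractile-like (0 to 1), *Adamtsl1 Mdga2* (0 to 2), cluster 7 (0 to 1) and interferon-responding-like (0 to 1). Dropping the cell with the most UMIs left higher genes in fibromyocyte-like (0 to 1), chondrocyte-like (2 to 1) and de-differentiated-like (1 to 2), and lower genes in plaque contractile-like (0 to 1), complement and acute-phase (2 to 1), *Adamtsl1 Mdga2* (0 to 1), *Pln Sncg Notch3* (3 to 1) and interferon-responding-like (0 to 1). Contractile-like cells of cluster 2 alone had higher genes in plaque contractile-like (1 to 2), and lower genes in plaque contractile-like (0 to 1). The less strict of the other folds gave higher genes in plaque contractile-like (1 to 2), *Itih4* metallothionein (0 to 3), fibromyocyte-like (0 to 2), complement and acute-phase (2 to 5), cluster 5 (2 to 7), cluster 7 (0 to 2), de-differentiated-like (1 to 2) and interferon-responding-like (0 to 1), and lower genes in plaque contractile-like (0 to 2), chondrocyte-like (2 to 4), *Adamtsl1 Mdga2* (0 to 3), cluster 7 (0 to 1), ligation contractile-like (0 to 1) and interferon-responding-like (0 to 3). The lower resolution gave higher genes in *Itih4* metallothionein (0 to 1), and lower genes in *Adamtsl1 Mdga2* (0 to 1), and genes above contractile-like cells in *Itih4* metallothionein (4 to 2) and interferon-responding-like (2 to 0). The higher resolution gave higher genes in *Itih4* metallothionein (0 to 1) and remodelling-like (2 to 1), and lower genes in complement and acute-phase (2 to 1), and genes below contractile-like cells in complement and acute-phase (2 to 1). A pseudocount of 0.1 gave higher genes in fibromyocyte-like (0 to 1), complement and acute-phase (2 to 1), cluster 7 (0 to 1) and ligation contractile-like (1 to 0), and lower genes in complement and acute-phase (2 to 0), chondrocyte-like (2 to 1), *Adamtsl1 Mdga2* (0 to 2), cluster 7 (0 to 1) and interferon-responding-like (0 to 1). Centring on the median of all genes gave higher genes in fibromyocyte-like (0 to 1) and de-differentiated-like (1 to 2). Dropping cells with a cycling-marker UMI gave higher genes in fibromyocyte-like (0 to 2), and lower genes in chondrocyte-like (2 to 1). Clustering with all genes allowed gave higher genes in de-differentiated-like (1 to 2), and lower genes in complement and acute-phase (2 to 1) and chondrocyte-like (2 to 1), and genes above contractile-like cells in interferon-responding-like (2 to 1), and genes below contractile-like cells in complement and acute-phase (2 to 1). A fold of 2 gave higher genes in complement and acute-phase (2 to 0), chondrocyte-like (2 to 1), ligation contractile-like (1 to 0), de-differentiated-like (1 to 0) and endothelial-like (2 to 1), and lower genes in complement and acute-phase (2 to 0), chondrocyte-like (2 to 1), *Pln Sncg Notch3* (3 to 1) and endothelial-like (1 to 0). Dropping the top 5% of Scrublet scores gave higher genes in de-differentiated-like (1 to 2) and endothelial-like (2 to 0), and lower genes in chondrocyte-like (2 to 1) and endothelial-like (1 to 4). Totals without mitochondrial genes gave higher genes in de-differentiated-like (1 to 2).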
